A study of Mus musculus with 36 samples.

Results

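Leukemia inhibitory factor (Lif), interleukin 11 (Il11), interleukin 6 (Il6), their shared receptor subunit gp130 (Il6st), thymic stromal lymphopoietin (Tslp), colony stimulating factor 1 (Csf1) and interleukin 33 (Il33) were followed across mouse embryonic fibroblasts (MEFs) under stress. These 7 genes were picked by symbol from the 54735 symbols of the deposited expression table. They were chosen because Lif, Il11 and Tslp had shown stress responses that depended on the line. For those 3 genes the stress responses, their differences, the DMSO effects and the levels of the untreated lines are therefore descriptions, with no test. Il6, Il6st, Csf1 and Il33 were listed with the same earlier results known.

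RNA was sequenced from a MEF line deleted for the kinase GCN2, a line deleted for the kinase PERK, and a wild-type (WT) line. Each line was starved in RPMI medium lacking lysine and arginine, given 200 nM thapsigargin, given the solvent DMSO, or left untreated, and the stress treatments lasted 6 h. Each of the 12 groups held 3 libraries, 36 in all, which the labels call technical replicates. GCN2 responds to uncharged tRNA, PERK to unfolded protein in the endoplasmic reticulum (ER), and thapsigargin empties the ER of calcium. All cells had been grown in RPMI medium with serum, and which group serves as control for a stress, or for the change of medium, is not in the labels. Starved cells were compared with untreated cells, and thapsigargin-treated cells with DMSO-treated cells. Since the labels name 1 line for each genotype, genotype and line cannot be told apart. Every p-value below reflects the spread among technical replicates alone.

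Cytokines of the IL-6 family signal through gp130, which pairs with a receptor that gives each ligand its specificity, such as the LIF receptor or the IL-11 receptor. The receptor-bound JAK kinases then phosphorylate STAT3, and STAT3 induces SOCS3, which shuts the receptor down again. TSLP, CSF1 and IL-33 act on other receptors, and in tissues they carry signals from stromal cells to dendritic cells, macrophages, and mast and lymphoid cells.

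Reference sequence before the start of 3 of the ligand genes is shown because Lif and Il11 were highest in the same group, starved GCN2-deletion cells, while their relative Il6 was not. The sequences are RefSeq promoter windows of build GRCm38.p6, written 5′ to 3′ along the gene from base -250 to base -21 before the annotated start, and none of them was measured here. Capitals mark the AP-1 motif TGANTCA and, in Il6, the CRE core TGACG, which lies there as its reverse complement.
Lif, chr11:4257318-4257547, plus strand: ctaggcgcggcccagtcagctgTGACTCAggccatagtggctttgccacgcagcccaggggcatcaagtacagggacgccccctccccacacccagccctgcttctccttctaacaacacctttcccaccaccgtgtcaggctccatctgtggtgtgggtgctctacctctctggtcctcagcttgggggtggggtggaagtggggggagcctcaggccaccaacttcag
Il11, chr7:4778162-4778391, minus strand: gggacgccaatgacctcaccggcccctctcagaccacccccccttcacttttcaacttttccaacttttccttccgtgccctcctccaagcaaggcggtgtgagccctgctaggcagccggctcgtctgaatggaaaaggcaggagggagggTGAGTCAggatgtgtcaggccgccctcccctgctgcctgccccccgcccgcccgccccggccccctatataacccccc
Il6, chr5:30012864-30013093, plus strand: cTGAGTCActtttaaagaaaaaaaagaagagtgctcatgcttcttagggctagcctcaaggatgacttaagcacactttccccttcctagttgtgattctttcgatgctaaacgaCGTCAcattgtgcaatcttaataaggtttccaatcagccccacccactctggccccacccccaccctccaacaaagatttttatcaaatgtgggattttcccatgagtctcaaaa

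Of the 7 members 6 matched the RefSeq table, with 8 windows of 300 bases between them that reach 50 bases past the start, and both strands were searched. The AP-1 motif, bound by FOS and JUN proteins, was found in 3 of the 8 windows, one each of Lif, Il11 and Il6, beside 7.81% of all 32851 windows. Its first base lay at -228 in Lif, -98 in Il11 and -249 in Il6. The other Il11 window and those of Il6st, Csf1 and Il33 held no such match. The CRE core was found in 1 of the 8, that of Il6 (at -135), beside 20.8% of all windows, and the kappaB motif GGANNTTCC in 2, those of Csf1 (-154) and Il6 (-43), beside 4.26%. The full CRE (TGACGTCA, which contains the core), the C/EBP-ATF composite TGATGNAAN, read by ATF4 and its partners, and the STAT motif TTCNNNGAA were in 0 of the 8 windows, beside 1.79%, 3.95% and 8.3% of all windows. The ETS core GGAAG was in 7 of the 8, beside 71.4%. A match is a run of letters and no evidence of binding.

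Gene levels are given in TPM, an abundance scaled for transcript length with the same total in every library, so levels of different genes can be set side by side. Replicate libraries correlated at 0.9621 to 0.9876, and 6 libraries, at most 1 in a group, had over 2% of their TPM in genes annotated as microRNAs (0.806 to 3.58% over all libraries). Member results that moved beyond the replicate spread or across the threshold without those 6 libraries are given both ways. Of 10 fibroblast markers, 8 averaged at least 1 TPM while Dcn and Lum did not, and the 10 summed to 2849 to 6603 TPM. Some varied widely between libraries: Col1a1 ran from 8.94 to 1589 TPM, Col3a1 from 0.203 to 270 TPM and Pdgfra from 0.206 to 33.1 TPM. Vim (1394 to 3184 TPM) and Fn1 (535 to 1809 TPM) were high in every library. None of 6 mast cell, 7 lymphocyte, 6 epithelial and 6 endothelial markers averaged 1 TPM. Of 8 macrophage markers only Cd68 and Cd14 did, with a sum over the list of 8.937 to 18.3 TPM and Ptprc and Adgre1 below 1 TPM. Eif2ak4, which encodes GCN2, was at 4.54 to 7.89 TPM in the 12 libraries of the GCN2-deletion line and at 18.4 to 28.1 TPM in the other 24. Eif2ak3, which encodes PERK, was at 3.41 to 9.26 TPM in the PERK-deletion line and at 3.82 to 20.7 TPM in the other libraries. These ranges pool the treatments. Within a treatment the PERK-deletion line lay below WT cells, without overlap, when untreated (3.87 to 4.58 against 5.97 to 7.52 TPM). The same held with DMSO (4.33 to 4.82 against 6.75 to 7.70 TPM) and thapsigargin (8.06 to 9.26 against 10.8 to 13.0 TPM). Starved libraries of these lines overlapped (3.41 to 4.24 and 3.82 to 4.20 TPM). How much of either gene is deleted is not given in the labels.

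Lif (chromosome 11, 4257557 to 4272514, plus strand in the GENCODE annotation of GRCm38; protein coding) keeps mouse embryonic stem cells undifferentiated and acts through the LIF receptor and gp130. Lif stood at 33.5, 30.3 and 44.7 TPM in starved GCN2-deletion cells and at 5.38, 5.27 and 4.64 TPM in untreated ones. Starved and untreated libraries did not overlap, and the mean was 7.10 times as high with starvation. In the PERK-deletion line the values were 19.6, 22.5 and 25.0 TPM with starvation and 14.6, 15.5 and 11.3 TPM untreated. These groups did not overlap either, but the ratio of means was 1.62. WT cells held 14.3, 14.8 and 15.1 TPM starved and 4.65, 2.76 and 3.53 TPM untreated, a ratio of 4.04 with no overlap. On the scale log2(TPM + 1), used for every log2 value here, the starvation effects were 2.59 in the GCN2-deletion line, 0.66 in the PERK-deletion line and 1.78 in WT cells (SE 0.15 each). As these are whole-culture measurements, more cells making Lif and more Lif per cell cannot be told apart, here or for any gene below.

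With thapsigargin the lines differed in direction. Lif was at 13.7, 14.6 and 15.3 TPM in GCN2-deletion cells with thapsigargin and at 5.15, 3.94 and 3.74 TPM with DMSO, a ratio of 3.40. In PERK-deletion cells it was at 8.93, 8.38 and 6.77 TPM with thapsigargin and at 11.2, 13.7 and 12.1 TPM with DMSO, a ratio of 0.651. Neither pair overlapped, so every thapsigargin library was above DMSO in one line and below it in the other. In WT cells the values were 3.63, 4.51 and 4.07 TPM with thapsigargin and 3.86, 2.92 and 3.20 TPM with DMSO, which overlapped. The effects were 1.57, -0.57 and 0.23 in the GCN2-deletion, PERK-deletion and WT lines. Set against WT, the thapsigargin effect on Lif was higher by 1.34 without GCN2 and lower without PERK (-0.80), and the starvation effect differed by 0.81 and -1.11 (SE 0.21 each). Both lines are set against the same WT libraries. Without the 6 libraries of high microRNA share the last of these was -1.30.

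Over the 12 groups Lif ran from 36.2 ± 7.57 TPM in starved GCN2-deletion cells (SD, n = 3 here and for every mean below) to 3.33 ± 0.479 TPM in WT cells with DMSO. Starved PERK-deletion cells came second at 22.4 ± 2.69 TPM and overlapped neither the group above nor the one below. The next 4 groups overlapped their neighbours: starved WT cells (14.7 ± 0.437 TPM), GCN2-deletion cells with thapsigargin (14.5 ± 0.763 TPM), and untreated and DMSO-treated PERK-deletion cells (13.8 ± 2.20 and 12.3 ± 1.29 TPM). Unstressed PERK-deletion cells thus held about as much Lif as starved WT cells. Thapsigargin-treated PERK-deletion cells stood alone at 8.03 ± 1.13 TPM, and the remaining 5 groups, at 3.33 to 5.09 TPM, overlapped one another in turn.

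**Figure D1:**
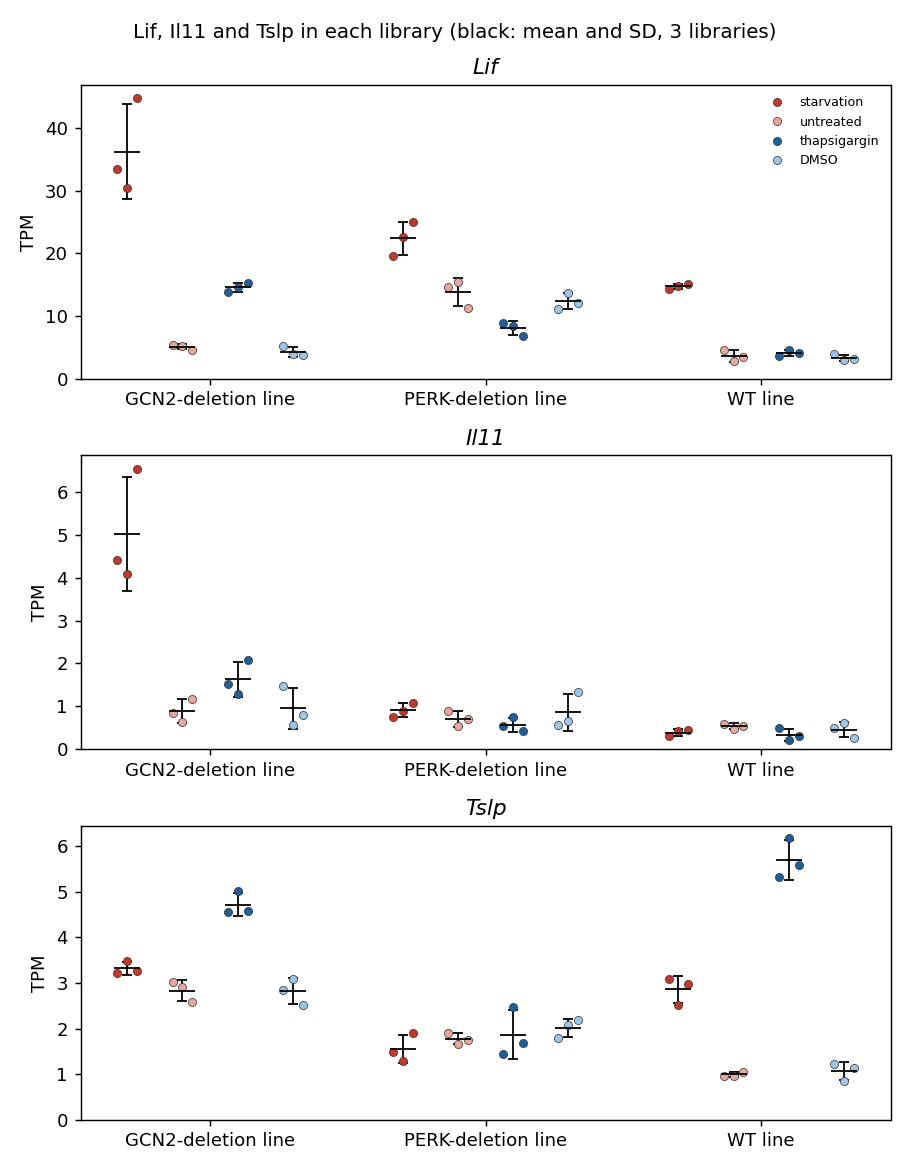
Levels of Lif, Il11 and Tslp (TPM, linear axes from 0) in each library of the 12 groups, with black marks for the mean and SD of 3 libraries. Lif and Il11 were highest in starved GCN2-deletion cells (36.2 and 5.01 TPM), and Tslp was highest in thapsigargin-treated WT cells (5.70 TPM).

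Il11 (chromosome 7, 4772373 to 4782859, minus strand) encodes a gp130 ligand made by stromal cells and known for its part in fibrosis and bone turnover. It was at 4.41, 4.09 and 6.54 TPM in starved GCN2-deletion cells and at 0.846, 0.627 and 1.18 TPM in untreated ones, a ratio of means of 5.66 with no overlap. In PERK-deletion cells the starved libraries (0.753, 0.891 and 1.08 TPM) overlapped the untreated ones (0.894, 0.531 and 0.706 TPM). In WT cells the starved libraries held 0.304, 0.423 and 0.437 TPM, all below the untreated ones at 0.598, 0.468 and 0.541 TPM. The starvation effects were 1.66, 0.16 and -0.15 in the GCN2-deletion, PERK-deletion and WT lines (SE 0.17 each). For GCN2-deletion cells the difference from WT was 1.81, and for PERK-deletion cells 0.31 (SE 0.25 each). The pseudocount bears on these values: with 0.1 in place of 1, the effect in GCN2-deletion cells was 2.38 and its difference from WT 2.77.

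Thapsigargin moved Il11 less than starvation did in GCN2-deletion cells: 1.53, 1.28 and 2.08 TPM with thapsigargin, against 1.48, 0.575 and 0.799 TPM with DMSO, which overlapped. The effect was 0.45 in that line, or 0.73 without the libraries of high microRNA share. It was -0.22 in PERK-deletion cells and -0.13 in WT cells, where the groups also overlapped. Its differences from WT were 0.57 and -0.10 in the GCN2-deletion and PERK-deletion lines, the first being 0.85 without those libraries. With a pseudocount of 0.1 the effect in GCN2-deletion cells was 0.78 and its difference from WT 1.15. Outside starved GCN2-deletion cells (5.01 ± 1.33 TPM) every group mean lay between 0.333 and 1.63 TPM, and each overlapped the next.

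Il6 (chromosome 5, 30013114 to 30019981, plus strand), the acute-phase cytokine that names the family, was close to absent. It did not reach 1 TPM in 3 libraries, the filter that the other genes had to pass, and is therefore not among the 16083 genes tested. The highest values were 1.19, 0.486 and 0.751 TPM in WT cells with thapsigargin, all above the 0.279, 0.278 and 0.373 TPM of WT cells with DMSO. Without the filter this effect was 0.45 on the log2 scale (SE 0.11, adjusted p = 0.00401 in limma), and none of the other 15 comparisons of Il6 passed. Il6 was listed at 0 in 4 libraries, all of the PERK-deletion line, and stayed at or below 0.516 TPM outside WT cells with thapsigargin.

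Il6st (chromosome 13, 112464070 to 112510086, plus strand) encodes gp130 itself and was well expressed in every library, from 40.5 to 102 TPM. With thapsigargin it stood at 98.6, 102 and 96.7 TPM in GCN2-deletion cells, against 64.1, 76.7 and 78.2 TPM with DMSO. The groups did not overlap, and Il6st rose there by 0.44 (SE 0.16, adjusted p = 0.0349 in limma over all genes tested), in a comparison where 25.4% of all genes tested rose and 11.3% fell. Leaving out 1 library ended this call in 5 of 6 cases, all but DMSO library 3 (adjusted p up to 0.142); it also ended after rescaling the libraries (0.29, adjusted p = 0.0852), without the filter (0.0729) and without the libraries of high microRNA share (0.33, adjusted p = 0.213). In the PERK-deletion line Il6st averaged 55.3 ± 2.19 TPM with thapsigargin and 58.2 ± 2.73 TPM with DMSO, and in WT cells 48.0 ± 12.8 and 51.2 ± 9.04 TPM, with effects of -0.07 and -0.11 (adjusted p = 0.935 and 0.718). Starvation effects on Il6st were 0.00, 0.08 and 0.09 in the GCN2-deletion, PERK-deletion and WT lines (SE 0.16, adjusted p = 1, 0.834 and 0.761), so a change of about 0.3 in either direction remains within the error. The difference of the thapsigargin effect between the GCN2-deletion line and WT was 0.55 (adjusted p = 0.112). It passed without WT library 2 with DMSO (0.70, adjusted p = 0.0357), without WT library 1 with thapsigargin (0.75, adjusted p = 0.0166) and against untreated cells (0.66, adjusted p = 0.0265). The other differences of effects on Il6st had adjusted p of 0.685 to 1.

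Tslp encodes a cytokine of barrier and stromal cells that primes dendritic cells, and it showed a different pattern from Lif and Il11. With thapsigargin it stood at 5.32, 6.18 and 5.59 TPM in WT cells, against 1.23, 0.858 and 1.13 TPM with DMSO, a ratio of means of 5.32. In GCN2-deletion cells it was at 4.55, 5.01 and 4.59 TPM with thapsigargin and at 2.84, 3.08 and 2.52 TPM with DMSO, a ratio of 1.68. Neither pair overlapped. In PERK-deletion cells the values were 1.44, 2.48 and 1.68 TPM with thapsigargin and 1.80, 2.07 and 2.19 TPM with DMSO, which overlapped. The effects were 0.59, -0.09 and 1.69 in the GCN2-deletion, PERK-deletion and WT lines (SE 0.11 each). Set against WT, the differences were -1.11 and -1.78 in the GCN2-deletion and PERK-deletion lines (SE 0.15). With a pseudocount of 0.1 the effect in WT cells was 2.32 and the PERK-deletion difference -2.46. Without library 2 of the thapsigargin-treated PERK-deletion cells the effect in that line was -0.24 and the difference -1.93.

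Starvation gave Tslp 3.08, 2.52 and 2.98 TPM in WT cells, against 0.964, 0.966 and 1.05 TPM untreated, a ratio of 2.87 with no overlap. GCN2-deletion cells held 3.22, 3.49 and 3.25 TPM starved and 3.01, 2.91 and 2.58 TPM untreated, and the groups did not overlap although the ratio was 1.17. PERK-deletion cells held 1.49, 1.28 and 1.89 TPM starved and 1.91, 1.67 and 1.75 TPM untreated, which overlapped. The effects were 0.17, -0.13 and 0.95, and the differences from WT -0.78 and -1.07 in the GCN2-deletion and PERK-deletion lines. With a pseudocount of 0.1 the WT effect was 1.43 and the differences -1.21 and -1.63. In WT cells the starvation effect on Tslp was smaller than the thapsigargin effect (difference -0.75), while for Lif it was larger (1.55) and for Il11 the difference was -0.02. In the order of group means the stressed WT and GCN2-deletion cells came first, thapsigargin-treated WT cells (5.70 ± 0.439 TPM) above thapsigargin-treated (4.72 ± 0.256 TPM) and starved (3.32 ± 0.148 TPM) GCN2-deletion cells, with no overlap between these 3. Starved WT cells (2.86 ± 0.299 TPM) overlapped unstressed GCN2-deletion cells, the 4 PERK-deletion groups (1.56 to 2.02 TPM) followed, and unstressed WT cells were lowest (0.995 and 1.07 TPM).

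**Figure D2:**
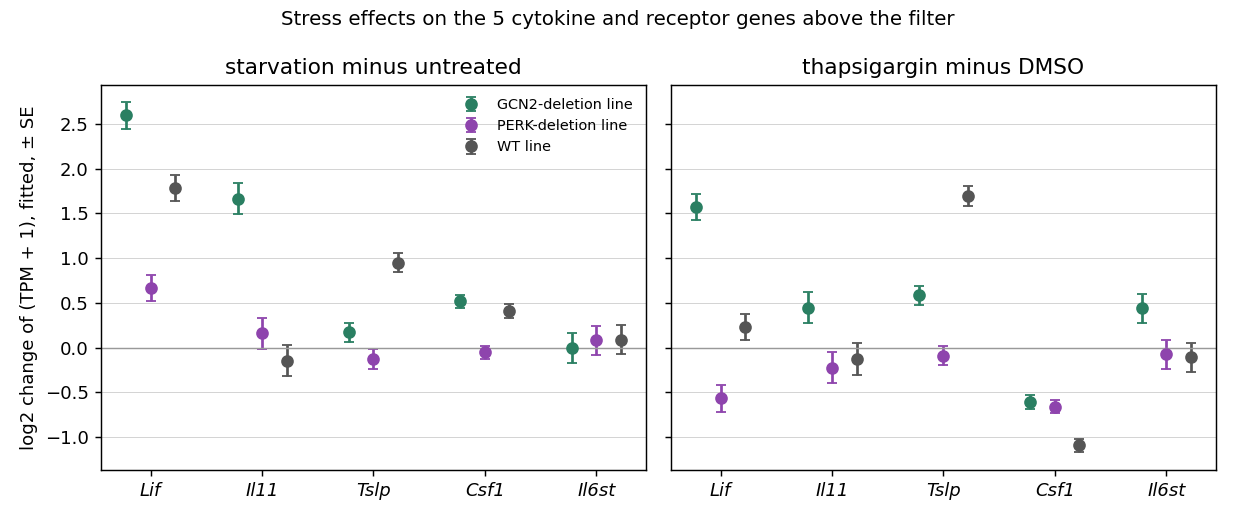
Starvation and thapsigargin effects (log2 change of TPM + 1, bars are SE) on the 5 members that passed the filter, in each line. Csf1 is below 0 with thapsigargin in all 3 lines (-0.61, -0.66 and -1.09), while Lif is above 0 with thapsigargin in the GCN2-deletion line (1.57) and below it in the PERK-deletion line (-0.57).

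Csf1 (chromosome 3, 107741048 to 107760469, minus strand) encodes the growth factor on which macrophages depend, and at 110 to 479 TPM it was the most abundant member in each of the 36 libraries. With thapsigargin it stood at 264, 240 and 233 TPM in GCN2-deletion cells, 164, 168 and 161 TPM in PERK-deletion cells and 120, 110 and 110 TPM in WT cells. With DMSO the same lines held 404, 362 and 356 TPM, 262, 277 and 242 TPM, and 247, 233 and 247 TPM. Thapsigargin and DMSO libraries overlapped in none of the lines. Csf1 fell by 0.61 in GCN2-deletion cells (adjusted p = 3.12e-07), by 0.66 in PERK-deletion cells (4.57e-07) and by 1.09 in WT cells (6.94e-12, all in limma, SE 0.08). These calls held in every alternative run, with a value of -0.39 in GCN2-deletion cells against untreated cells. Among all genes tested, 2.5% rose and 2.8% fell with thapsigargin in PERK-deletion cells, and 11.4% rose and 14.8% fell in WT cells. The fall was smaller than in WT in both deletion lines, by a difference of 0.49 without GCN2 (adjusted p = 0.00364) and 0.43 without PERK (adjusted p = 0.00616), where 12.3% and 5.59% of genes had a higher effect than in WT and 1.95% and 7.38% a lower one. In the first of these comparisons the median of all genes tested was 0.132, and -0.040 after rescaling; the difference for Csf1 was 0.27 after rescaling and 0.78 against untreated cells, past the threshold in both. Summed macrophage markers were 16.8 to 18.3 TPM in WT cells with thapsigargin and 11.3 to 12.9 TPM with DMSO. In the PERK-deletion line they were 14.99 to 15.95 and 10.98 to 14.15 TPM, and in the GCN2-deletion line 9.67 to 12.84 and 9.56 to 14.13 TPM, which overlapped. The part of such cells in the Csf1 values was not tested.

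With starvation Csf1 moved the other way. It stood at 446, 461 and 479 TPM in starved GCN2-deletion cells, against 298, 320 and 351 TPM untreated, and at 331, 352 and 343 TPM in starved WT cells, against 277, 262 and 233 TPM untreated. Neither pair overlapped, and Csf1 rose by 0.52 (adjusted p = 8.7e-06) and 0.41 (adjusted p = 0.000107) in limma. Against DMSO-treated cells the rise in GCN2-deletion cells was 0.31. In the GCN2-deletion line 11.7% of genes tested rose and 12.2% fell, and in WT cells 12.5% rose and 17.4% fell. PERK-deletion cells held 270, 260 and 289 TPM starved and 309, 296 and 247 TPM untreated, which overlapped, with an effect of -0.05 (SE 0.08, adjusted p = 0.755) in a comparison where 5.75% of genes rose and 6.39% fell. The starvation effect in PERK-deletion cells was lower than in WT by 0.46 (adjusted p = 0.00384, or 0.0845 when only the 4 compared groups were fitted), where 5.58% of genes had a higher and 5.34% a lower effect. In GCN2-deletion cells the difference from WT was 0.11 (adjusted p = 0.656; -0.19 and not passed against DMSO-treated cells), where 3.69% were higher and 4.17% lower. In WT cells the starvation effect on Csf1 stood 1.502 above the thapsigargin effect (adjusted p = 3.08e-11), a comparison in which 5.77% of genes were higher and 6.17% lower.

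Il33 (chromosome 19, 29925114 to 29960718, plus strand), an alarmin stored in the nucleus and released on damage, did not pass the filter either. It ran from 0 to 0.483 TPM and was listed at 0 in 2 libraries, both of starved PERK-deletion cells. Without the filter 1 of its 16 comparisons passed: untreated GCN2-deletion cells held 0.0470 to 0.102 TPM and untreated WT cells 0.206 to 0.344 TPM (log2 difference -0.24, adjusted p = 0.0358).

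**Figure D3:**
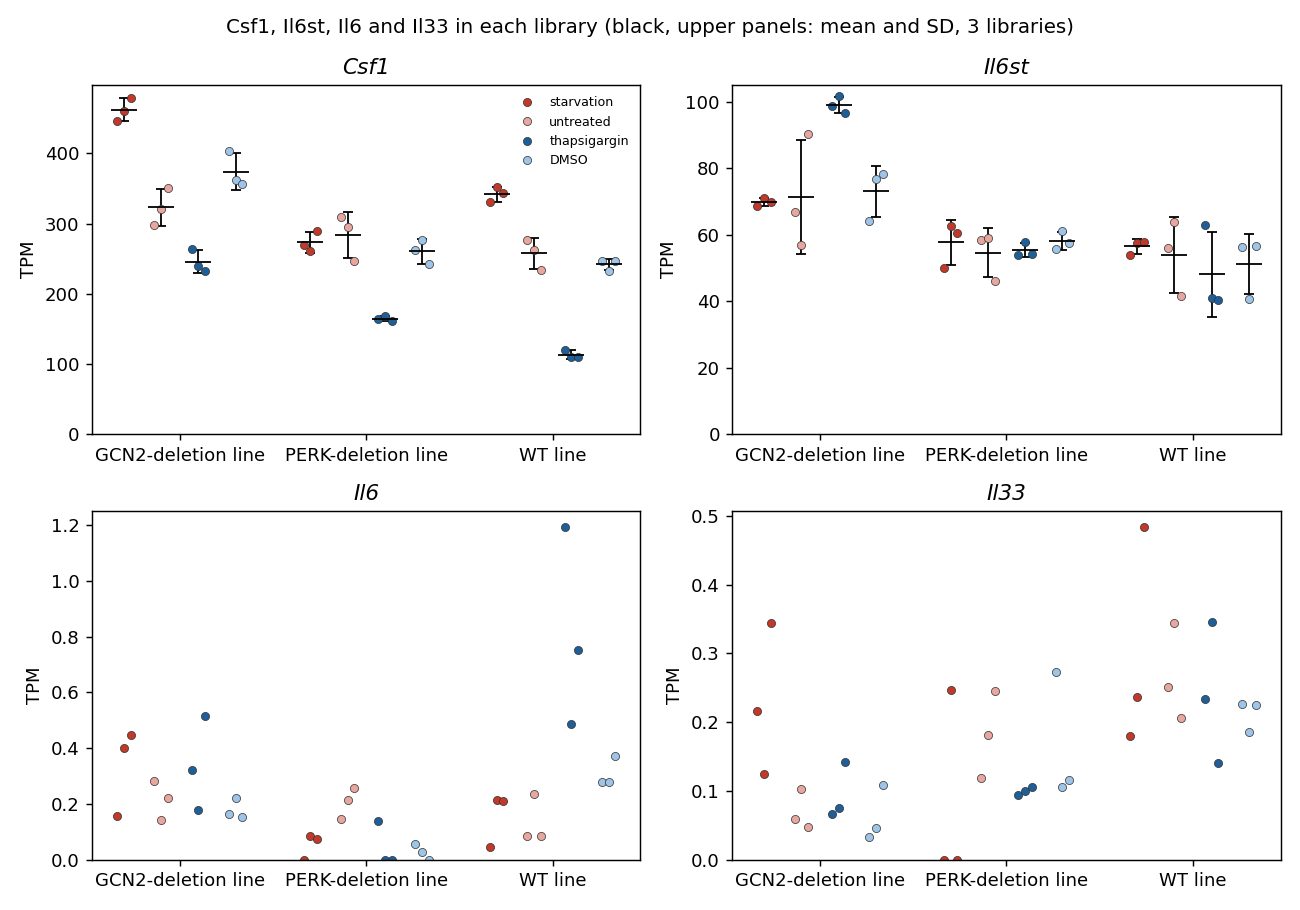
Levels of Csf1, Il6st, Il6 and Il33 (TPM, linear axes from 0) in each library of the 12 groups, with black marks in the upper panels for the mean and SD of 3 libraries. Csf1 is lower with thapsigargin than with DMSO in all 3 lines, and Il6 and Il33 stay below 1.2 and 0.5 TPM.

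Levels also differed between the untreated lines. The untreated libraries are the controls of the starvation responses that chose Lif, Il11 and Tslp, so their levels here are again descriptions with no test. Of the members above the filter only Csf1 and Il6st were tested, and the Il33 value given above without the filter rests on levels far below it. Csf1 was at 323 ± 26.6 TPM in untreated GCN2-deletion cells and 257 ± 22.2 TPM in untreated WT cells, a log2 difference of 0.33 (adjusted p = 0.000768), and 0.62 between the DMSO-treated groups. Il6st was at 71.4 ± 17.3 and 53.8 ± 11.4 TPM (0.40, adjusted p = 0.0499), and its libraries overlapped. Leaving out GCN2-deletion library 1 or 3 or WT library 1 or 3 ended that call, 4 of the 6 cases (adjusted p up to 0.324). The call also ended without the libraries of high microRNA share (0.43, adjusted p = 0.0641), without the filter (0.0931) and without the variance trend (0.0542). It ended as well with the replicate block (0.06) and with these groups fitted alone (0.248). Of all genes tested 21.2% were higher and 23.2% lower in the GCN2-deletion line, so calls in either direction were common. Tslp held 2.83 ± 0.226 TPM in untreated GCN2-deletion cells and 0.995 ± 0.0510 TPM in untreated WT cells, with no overlap (log2 difference 0.94, or 1.42 with a pseudocount of 0.1). Lif was at 5.09 ± 0.401 and 3.65 ± 0.948 TPM in the same groups (0.41, or 0.27 without WT library 2), and Il11 differed by 0.29 (0.60 with a pseudocount of 0.1).

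In untreated PERK-deletion cells Csf1 did not pass (0.14, adjusted p = 0.137), but did without PERK-deletion library 3 (0.23, adjusted p = 0.0107) and without the libraries of high microRNA share (0.29, adjusted p = 0.00211). Il6st did not pass either (0.03, SE 0.16, adjusted p = 0.904). Of all genes tested 31.2% were higher and 18.6% lower in this line. Lif stood at 13.8 ± 2.20 TPM there, against 3.65 ± 0.948 TPM in untreated WT cells, a ratio of 3.78 with no overlap. The log2 difference was 1.68, or 1.96 without the libraries of high microRNA share. Tslp stood at 1.78 ± 0.119 TPM against 0.995 ± 0.0510 TPM, also without overlap (0.48, or 0.78 with a pseudocount of 0.1), and Il11 differed by 0.15 (0.33 with a pseudocount of 0.1). Summed fibroblast markers were 6363 to 6577 TPM in untreated GCN2-deletion cells, 2849 to 3114 TPM in untreated PERK-deletion cells and 3926 to 4555 TPM in untreated WT cells, and their part in these differences was not tested.

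DMSO itself moved neither Csf1 nor Il6st past the test in the GCN2-deletion, PERK-deletion or WT line (adjusted p = 0.436 to 0.964 in limma). Of these only Csf1 in the GCN2-deletion line had an unadjusted p under 0.05. Calls were as rare over all genes, with 0.056%, 0.137% and 0.0435% higher and 0.0933%, 0.106% and 0.0746% lower in the same lines. Csf1 in the GCN2-deletion line had the effect farthest from 0 of that gene, with 374 ± 26.0 TPM with DMSO and 323 ± 26.6 TPM untreated (0.21, adjusted p = 0.436).

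Beyond the members, 64 genes of the same pathways were read from lists of relatives, receptors, signalling genes and other cytokines, and 50 of them passed the filter. With starvation 12 rose and 7 fell in GCN2-deletion cells, 9 rose and 4 fell in PERK-deletion cells, and 10 rose and 14 fell in WT cells. As shares these were 24 and 14%, 18 and 8%, and 20.0 and 28%, beside 11.7 and 12.2%, 5.75 and 6.39%, and 12.5 and 17.4% of all genes tested. With thapsigargin the counts were 10 and 7, 0 and 4, and 3 and 15 in the same lines, or 20.0 and 14%, 0 and 8%, and 6 and 30.0%, beside 25.4 and 11.3%, 2.5 and 2.8%, and 11.4 and 14.8% of all genes. In PERK-deletion cells 15 of the 50 had an unadjusted p under 0.05 with thapsigargin, and the 4 calls became 7 against untreated cells. Medians over the 50 were close to 0 with starvation (0.033, -0.017 and -0.029) and with thapsigargin (0.108, -0.083 and -0.135), beside -0.001, -0.017 and -0.047, and 0.078, -0.038 and -0.043, over all genes tested. Genes named below kept their call when each library was left out in turn, as 134 of the 167 calls that the naming rule allowed did, unless the text says otherwise.

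Other ligands of the family were few. Of 8 on that list, 4 passed the filter, and oncostatin M (Osm), another gp130 ligand, was listed at 0 in all 36 libraries.

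Of 7 gp130-family receptors 6 passed the filter, and against untreated WT cells 1 was higher and 3 were lower in untreated GCN2-deletion cells, and 2 were higher and 3 lower in untreated PERK-deletion cells. Over all genes tested 21.2% were higher and 23.2% lower without GCN2, and 31.2% and 18.6% without PERK, and the list itself was not tested. Lifr, the LIF receptor, was at 3.98 ± 0.950 and 2.92 ± 0.529 TPM in the GCN2-deletion and PERK-deletion lines, against 14.3 ± 3.99 TPM in WT cells (-1.60 and -1.94, adjusted p = 2.43e-09 and 5.19e-11). Osmr, the oncostatin M receptor, was at 14.7 ± 2.12 and 9.43 ± 1.13 TPM against 54.1 ± 10.4 TPM (-1.80 and -2.39, adjusted p = 5.22e-12 and 1.13e-14). Cntfr, the CNTF receptor, went the other way, at 2.04 ± 0.183 and 3.998 ± 0.397 TPM against 0.123 ± 0.0394 TPM (1.44 and 2.15). It met the filter of 1 TPM in the untreated deletion lines and not in untreated WT cells. The filter thus favoured its place among the higher receptors counted above.

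Il11ra1, which encodes the receptor specific for IL-11, fell with starvation by 0.55 in GCN2-deletion cells (14.6 ± 1.23 TPM starved, 21.8 ± 0.965 TPM untreated, adjusted p = 0.000181) and by 0.66 in WT cells (12.01 ± 1.74 and 19.5 ± 2.73 TPM, adjusted p = 1.1e-05). In PERK-deletion cells it fell by 0.39 (adjusted p = 0.0106), a call that ended without untreated PERK-deletion library 2 (adjusted p = 0.0547), against DMSO-treated cells or with these groups fitted alone (adjusted p up to 0.312). With thapsigargin Il11ra1 did not pass in any line (-0.23, -0.02 and -0.06, adjusted p = 0.0809, 0.988 and 0.732). The contrast between the stresses rests on the control: in WT cells the starvation effect on Il11ra1 was -0.32 against DMSO-treated cells, and starvation minus thapsigargin, -0.59 (adjusted p = 0.00566), was 0.0813 (adjusted p = 0.738) with the other control for each stress. Osmr rose with thapsigargin in GCN2-deletion cells (23.98 ± 1.33 TPM against 14.2 ± 1.52 TPM with DMSO, 0.72, adjusted p = 9.98e-05), and Lifr fell in WT cells (7.35 ± 1.07 TPM against 13.1 ± 2.46 TPM, -0.75, adjusted p = 0.000697).

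All 10 genes of JAK-STAT signalling and its feedback passed the filter. With starvation 1 rose and 6 fell in WT cells, against 1 and 3 in GCN2-deletion cells and 1 and 1 in PERK-deletion cells. The share of all genes tested that fell ran in the same order, at 17.4%, 12.2% and 6.39%. Stat3, the transcription factor downstream of gp130, fell in starved WT cells (38.6 ± 1.25 TPM against 75.8 ± 13.4 TPM untreated, -0.94, adjusted p = 2.56e-07), and Socs3, its feedback inhibitor, fell beside it (9.12 ± 0.336 TPM against 18.7 ± 0.830 TPM, -0.96, adjusted p = 3.52e-10). Neither passed in starved GCN2-deletion cells (-0.12 and -0.02, adjusted p = 0.502 and 0.903) or PERK-deletion cells (-0.02 and -0.14, adjusted p = 0.966 and 0.305), where both were already lower than in WT without stress (Stat3 -0.99 and -1.29, Socs3 -0.62 and -1.01). Socs3 also fell with thapsigargin, by 0.77 in GCN2-deletion cells (adjusted p = 2e-08) and by 0.71 in WT cells (adjusted p = 1.01e-07).

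Of 8 genes listed as STAT3 targets, most of which also answer to other signals, 4 rose with starvation in GCN2-deletion cells, 3 in PERK-deletion cells and 5 in WT cells, while 2 fell in WT cells. Of all genes tested 11.7%, 5.75% and 12.5% rose in the same lines, and 17.4% fell in WT cells. Junb, an AP-1 subunit, stood at 136 ± 26.8 TPM in starved GCN2-deletion cells and 91.9 ± 14.1 TPM in starved WT cells, against 52.0 ± 1.70 and 38.3 ± 5.18 TPM untreated (1.36 and 1.24, adjusted p = 2.81e-08 and 6.19e-08). In starved PERK-deletion cells Junb rose by 0.62 (adjusted p = 0.00287), a call that ended with these groups fitted alone (adjusted p = 0.0638). Timp1, a secreted inhibitor of matrix proteases, rose with starvation by 0.58 in GCN2-deletion cells (adjusted p = 4.87e-08) and 0.49 in PERK-deletion cells (adjusted p = 1.86e-06). Its starvation effect did not differ from that in WT cells past the threshold in either deletion line, so the rise is not particular to them. With thapsigargin Junb fell in PERK-deletion cells (27.3 ± 0.615 TPM against 58.9 ± 7.72 TPM with DMSO, -1.07, adjusted p = 3.32e-06). Cebpb, a transcription factor of the acute-phase and ER stress responses, rose with thapsigargin in GCN2-deletion cells (43.3 ± 6.77 TPM against 12.1 ± 0.108 TPM, 1.75, adjusted p = 2.57e-11) and WT cells (51.8 ± 6.55 TPM against 21.2 ± 2.36 TPM, 1.25, adjusted p = 2.03e-08), and had an effect of 0.07 in PERK-deletion cells (adjusted p = 0.918).

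**Figure D4:**
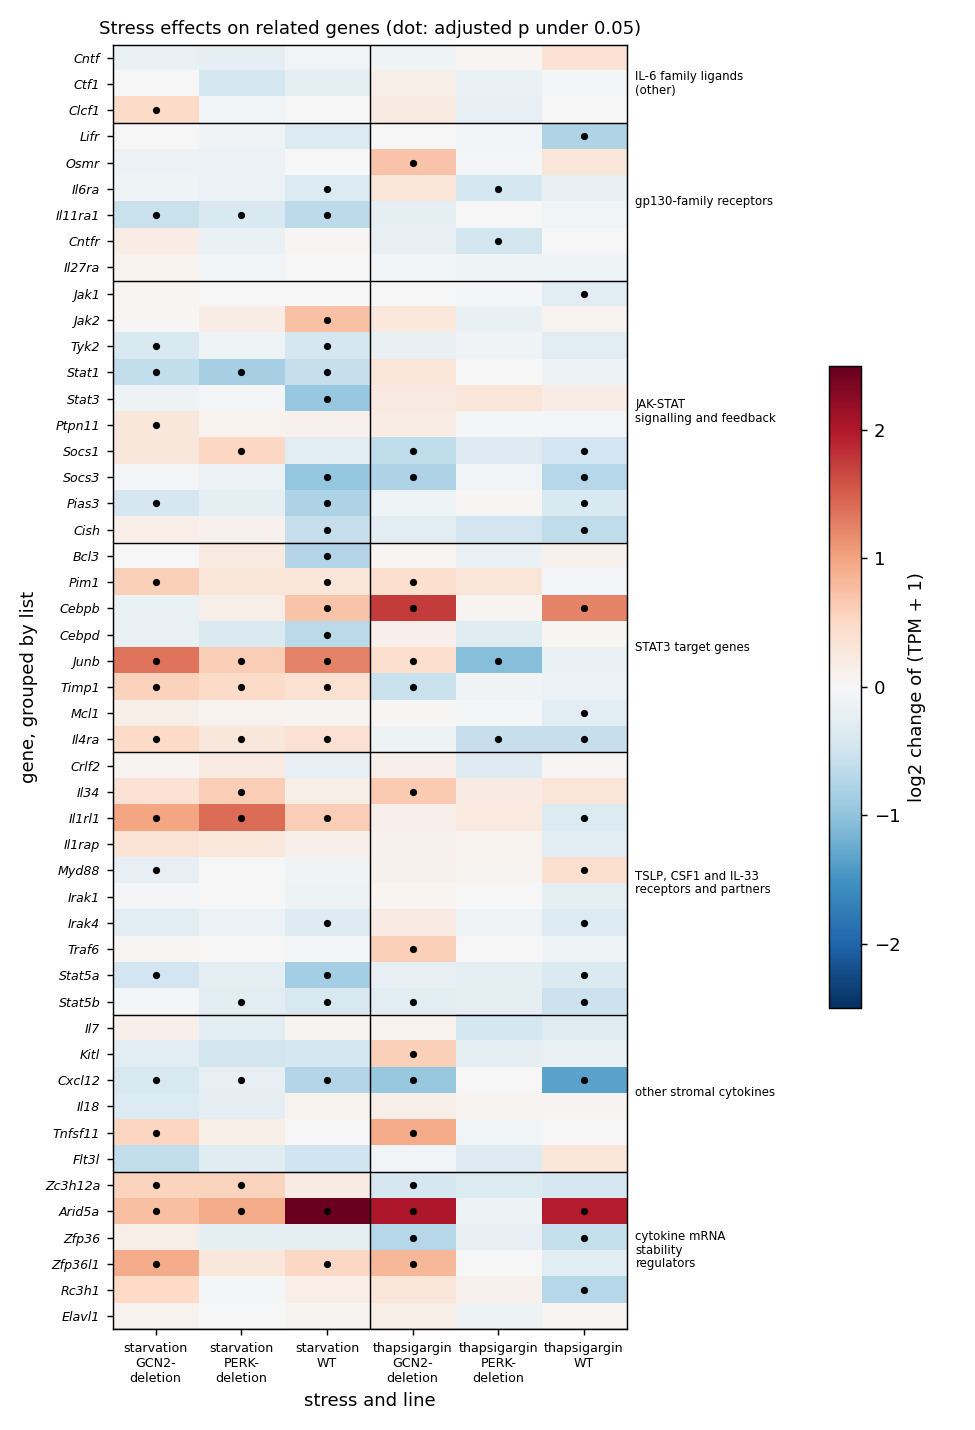
Starvation and thapsigargin effects (colour, log2 change of TPM + 1) on the related genes that passed the filter, save 1 not reported here, grouped by list, in each line, with a dot where the adjusted p was under 0.05. Arid5a rose in every column except thapsigargin in PERK-deletion cells (-0.12), where 4 genes fell.

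The receptors for TSLP, CSF1 and IL-33 were uneven. Il1rl1, which encodes the IL-33 receptor ST2, was well expressed although Il33 was not, and it rose with starvation in all 3 lines. It stood at 205, 206 and 237 TPM in starved GCN2-deletion cells, against 113, 94.2 and 121 TPM untreated (0.98, adjusted p = 6.49e-08). In starved PERK-deletion cells it stood at 214, 190 and 198 TPM, against 79.7, 76.0 and 70.8 TPM untreated (1.40, adjusted p = 1.82e-10). Starved WT cells held 65.2, 57.5 and 53.1 TPM and untreated ones 37.3, 41.7 and 34.8 TPM (0.61, adjusted p = 4.14e-05). No pair overlapped. A gene total does not tell the membrane form of ST2 from its soluble decoy form. Crlf2, the TSLP receptor chain, averaged 6.20 to 11.4 TPM over the groups, while its partner Il7r reached no more than 0.130 TPM and the CSF1 receptor Csf1r no more than 0.555 TPM in any library.

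Among other stromal cytokines, 6 of 13 passed the filter, and Il1b was listed at 0 in all 36 libraries. The chemokine gene Cxcl12 fell with thapsigargin in GCN2-deletion cells (254 ± 6.89 TPM against 493 ± 10.4 TPM with DMSO, -0.96, adjusted p = 4.95e-13) and WT cells (163 ± 6.47 TPM against 413 ± 10.5 TPM, -1.33, adjusted p = 4.78e-16). In PERK-deletion cells it held 265 ± 5.48 TPM with thapsigargin and 266 ± 17.5 TPM with DMSO (-0.01, SE 0.06, adjusted p = 1). Cxcl12 also fell with starvation in GCN2-deletion cells (-0.40, adjusted p = 9.35e-06) and WT cells (-0.73, adjusted p = 1.2e-10). In starved PERK-deletion cells it also fell (-0.20, adjusted p = 0.0257), a call that ended in 4 of 6 cases when 1 library was left out.

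All 6 regulators of cytokine mRNA stability passed the filter, among them Arid5a, whose protein binds and stabilises Il6 mRNA. With starvation it stood at 20.4 ± 0.772 TPM in GCN2-deletion cells, 31.3 ± 3.53 TPM in PERK-deletion cells and 94.9 ± 10.8 TPM in WT cells, against 11.8 ± 0.560, 15.9 ± 2.25 and 16.4 ± 1.36 TPM untreated (0.74, 0.94 and 2.46, adjusted p = 1.18e-06, 5.55e-08 and 2.5e-17). With thapsigargin it stood at 54.9 ± 3.04, 17.1 ± 1.23 and 65.8 ± 3.82 TPM in the same lines, against 12.7 ± 1.06, 18.7 ± 0.886 and 16.2 ± 1.27 TPM with DMSO (2.03, -0.12 and 1.96, adjusted p = 1.17e-15, 0.651 and 3.12e-15). Arid5a was highest in starved WT cells, where Il6 held at most 0.214 TPM. It was next highest in WT cells with thapsigargin, the group with the most Il6 (0.810 ± 0.357 TPM). Il6 was below the filter, and a link between these levels was not tested.

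The genes whose group means were most like those of Lif, Il11 and Tslp were found by Pearson correlation of log2(TPM + 1) over the 12 groups, among 10467 genes of at least 5 TPM in some group. For Lif they were Dimt1 (r = 0.946), Adss (0.930), Dusp2 (0.930), Eef1e1 (0.928) and Areg (0.923). Areg, an EGF receptor ligand, ran from 0.407 TPM in untreated WT cells to 15.01 TPM in starved GCN2-deletion cells. For Il11 they were Odaph (0.978), Arc (0.901), Olfm2 (0.899), Litaf (0.895) and Kctd5 (0.892), all highest in starved GCN2-deletion cells. For Tslp they were Socs2 (0.939), Tmem11 (0.918), Osgin2 (0.910), Stbd1 (0.886) and Atg3 (0.871), all highest in GCN2-deletion cells with thapsigargin, a group in which Tslp itself came second. Between the members, Lif and Il11 correlated at 0.666 and Tslp and Csf1 at -0.171. These values describe 12 groups that share lines and controls, and were picked as the highest of many.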

How the data were processed

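RNA sequencing libraries were quantified by the authors, who deposited 1 table of TPM per gene symbol. FastQC, kallisto and the mm10 reference are named, per the submitters' processing notes; versions are not given in the sources used here. TPM keeps no read depth, so no counting interval or detection limit was given. Values were used as deposited, as log2(TPM + 1). The 16083 genes that reached 1 TPM in 3 or more libraries were fitted over all 12 groups with limma 3.58.1 in R 4.3.3 (variances following expression level, 24 residual degrees of freedom), checked on simulated data. Each of 16 comparisons was adjusted by Benjamini-Hochberg over all genes tested, with a threshold of 0.05. The members and lists were chosen with earlier results of these data known. Related genes could be named if among the 3 of each list that changed most, past the threshold, with a mean of at least 1 TPM; receptor and feedback genes could also be named by level. A gene of the lists entered the counts and is not reported here by name. Tests of Lif, Il11 and Tslp between the untreated lines and between DMSO-treated and untreated cells, planned at first, are not given. Loci came from GENCODE M21 and promoters from RefSeq GRCm38.p6. Alternatives changed the pseudocount, filter, scaling, variance trend, groups fitted, control and libraries, or added the replicate number as a block; leaving out the libraries of high microRNA share was added after seeing the data. Figures used matplotlib 3.10.9 and Python 3.11.15.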

Additional observations from a re-analysis of the deposited data

Results flagged for a closer look

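Stress effects that differed between a deletion line and WT, tested as a difference of effects in limma over all genes, were found for Csf1 and for several related genes. Csf1 is given at any size. Related genes are listed only if the difference was at least 0.75 in either direction and kept its call with each library left out. Smaller ones that passed, such as Socs3 with thapsigargin in the PERK-deletion line (0.63), are not listed. Values are log2 differences, deletion line minus WT, both lines share the WT libraries, and no cause was tested.

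With starvation the effect in the GCN2-deletion line minus that in WT was 0.82 for Stat3, 0.94 for Socs3, -0.87 for Cebpb and -1.72 for Arid5a. The Stat3 difference did not pass against DMSO-treated cells. In the PERK-deletion line the difference from WT was -0.46 for Csf1, 0.92 for Stat3, 0.76 for Socs1, 0.82 for Socs3, 0.79 for Il1rl1 and -1.53 for Arid5a. Those of Csf1 and Socs1 did not pass when only the 4 compared groups were fitted.

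With thapsigargin the effect in the GCN2-deletion line minus that in WT was 0.49 for Csf1, 0.93 for Tnfsf11, which encodes the osteoclast factor RANKL, and 1.12 for Zfp36l1, which encodes an mRNA decay factor. In the PERK-deletion line the difference from WT was 0.43 for Csf1, -1.18 for Cebpb, -0.90 for Junb, 1.33 for Cxcl12 and -2.08 for Arid5a. For Tnfsf11 the thapsigargin effect in the GCN2-deletion line by itself was 0.94, close to its difference from WT. With starvation its effect there and the difference were both 0.53. WT cells thus showed next to no change in Tnfsf11, as a gene near 0 TPM would, so its difference tells little about the WT response. Lif, Il11 and Tslp are left out here because the same contrasts chose them, and groups of 3 libraries were not searched for single outlying samples.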

How the results depend on the processing

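Of the values of single members under alternative settings, 1252 kept their side of the threshold or moved by less than the replicate spread, 34 moved, 18 lost their call and 5 gained one. Most of the moves came with a pseudocount of 0.1. Some of the 1252, near 0 and not called in either run, changed sign. Among related genes 2489 values kept their call, 252 lost it, and Il11ra1 turned in the comparison of starvation with thapsigargin in WT, to 0.0813 (adjusted p = 0.738) with the other controls; the cause was not tested. The replicate numbers do not pair the libraries: deviations of 33 same-numbered pairs correlated at -0.179 to 0.155, 9 best with their own number. With the replicate block Il6st in untreated GCN2-deletion cells had adjusted p = 0.06 and the WT DMSO comparison 29 calls; no other member changed its call. Fitting the compared groups alone, which leaves fewer residual degrees of freedom, gave 264 calls in place of 1951 for starvation in PERK-deletion cells and 2149 in place of 4810 in WT cells, 790 and 692 for the starvation differences of the GCN2-deletion and PERK-deletion lines, 1408 for the thapsigargin difference of the GCN2-deletion line, 1269 for starvation against thapsigargin, 4357 and 4650 for the untreated lines, and 3, 9 and 2 for DMSO (main counts 24, 39 and 19 in the GCN2-deletion, PERK-deletion and WT lines); related calls were 4 and 6 in the PERK-deletion line (starvation and its difference) and 19 untreated. With the other controls thapsigargin gave 1540 calls in PERK-deletion cells, its differences 5734 and 3234, and starvation against thapsigargin 3451, with 7, 27 and 16 related calls in the first 3. Rescaling gave 68, 64 and 71 calls for DMSO; no filter gave 76 and 35 in the PERK-deletion and WT lines, and 7 related calls for the thapsigargin difference of the GCN2-deletion line. Without the libraries of high microRNA share there were 1393 calls (7 related) for thapsigargin in PERK-deletion cells, 4429 (20 related) for the thapsigargin difference of the GCN2-deletion line, and 204 and 34 for DMSO in GCN2-deletion and WT cells, with 1 related call in PERK-deletion cells. With 1 library left out at a time, DMSO calls ran from 12 to 26, 11 to 49 and 3 to 1456 in the 3 lines (1456 without untreated WT library 3, which also gave 5 related calls in place of 0), related calls for thapsigargin in PERK-deletion cells from 2 to 4, the starvation difference of the GCN2-deletion line from 1015 to 1899 calls, and its thapsigargin difference from 1156 to 3102 calls and 7 to 18 related calls. TPM hides read depth, so how firmly Il6, Il33 and Il11 were measured is unknown.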
